A study of Mus musculus with 3 samples.

Results

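Cholesterol and fatty acid synthesis genes were followed through the cells of KP1 small cell lung tumors treated with an engineered cytokine, alone or with blockade of the checkpoint receptor PD-1. The group held 28 of the 33696 genes in the count tables. It was made of 3 regulators (Srebf1, Srebf2 and Insig1), 7 genes of the mevalonate steps from acetoacetyl-CoA to farnesyl diphosphate, 11 genes of the squalene and sterol steps, the sterol carrier gene Stard4 and 6 genes of fatty acid synthesis. All but Srebf1 and the 6 fatty acid genes, 21 genes, are summed below as the sterol arm. The genes were listed by pathway after 1 of them, Idi1, had been seen among the lowest T cell genes in the combination library against the IL-10/2-Trikine library. Idi1 in that comparison is therefore given as a description, and its partners in the same comparison are counted without a test.

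Each treatment was 1 library, so no difference between treatments could be set against a spread between replicates. Wild-type B6129SF1/J mice carried subcutaneous tumors grown from 500000 KP1 cells, an Rb/p53 mutant mouse line of small cell lung cancer, in all 3 groups. In the first group the mice received mono-IL-10, a monomeric form of human IL-10 that signals mainly through STAT3. In the second they received IL-10/2-Trikine, in which the same monomer is fused to a non-signaling IL-2 variant that recruits IL-2Rβ and adds STAT5. In the third, called the combination here, IL-10/2-Trikine was given with anti-PD-1. Doses of 3 µg cytokine were injected on alternate days starting on day 7, doses of 200 µg anti-PD-1 on days 7, 11, 15 and 19, and tumors were collected on day 19. The written protocol can be read as anti-PD-1 for every group, but only the third sample mentions it in its title and treatment field, and the grouping here follows these. An untreated tumor was not analysed here, and the number of mice pooled in a library is not given in the sources used here. Live CD45+ cells were sorted, so tumor cells are those that passed this sort.

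Cholesterol is built from acetyl-CoA through mevalonate, isoprenoid diphosphates, squalene and lanosterol, and fatty acids are built from acetyl-CoA through malonyl-CoA. SREBP transcription factors, encoded by Srebf1 and Srebf2, turn on most genes of both routes when sterols in the endoplasmic reticulum membrane run low. INSIG proteins hold the SREBP escort SCAP in the endoplasmic reticulum when sterols are plentiful. T cells that enter division raise both routes to make new membrane, and isoprenoids from the mevalonate steps also anchor small GTPases.

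Promoters of 3 members that recur in the comparisons below, Idi1, Cyp51 and Hmgcs1, are shown to let their sequence be read beside their values. Each is the 250 bases before the RefSeq start site in mouse build GRCm38.p6, written along the gene's own strand. Capitals mark CCAAT boxes, the pentamer bound by NF-Y, on either strand (ATTGG is the box on the other strand), and the sterol regulatory element core TCACCCCAC. The windows lie at chr13:8885356-8885605 (+) for Idi1, chr5:4104698-4104947 (-) for Cyp51 and chr13:119690101-119690350 (+) for Hmgcs1.
Idi1: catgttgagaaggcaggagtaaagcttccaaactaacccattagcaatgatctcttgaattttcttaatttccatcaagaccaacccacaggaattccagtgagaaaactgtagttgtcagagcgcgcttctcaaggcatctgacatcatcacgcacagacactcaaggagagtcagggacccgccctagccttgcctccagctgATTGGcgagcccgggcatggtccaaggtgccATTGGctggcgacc
Cyp51: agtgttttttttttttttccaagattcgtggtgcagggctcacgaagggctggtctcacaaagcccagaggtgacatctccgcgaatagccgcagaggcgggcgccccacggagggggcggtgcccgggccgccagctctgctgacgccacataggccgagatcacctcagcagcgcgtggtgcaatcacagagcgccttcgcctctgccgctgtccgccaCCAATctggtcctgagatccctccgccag
Hmgcs1: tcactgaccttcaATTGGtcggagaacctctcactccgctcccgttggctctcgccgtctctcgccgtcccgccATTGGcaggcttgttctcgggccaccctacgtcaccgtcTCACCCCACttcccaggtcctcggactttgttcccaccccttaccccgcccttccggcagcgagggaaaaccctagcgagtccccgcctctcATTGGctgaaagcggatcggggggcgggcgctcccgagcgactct

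The Idi1 window held CCAAT boxes 45 and 14 bases before the start and the Cyp51 window held 1 box 29 bases before it. The Hmgcs1 window held 3 boxes, at 237, 176 and 45 bases, and the core TCACCCCAC at 137 bases. RefSeq windows were found for 22 of the 28 members, in 27 windows since some genes have more than 1 start. A CCAAT box on either strand was in 19 of these 27 windows, 70.4%, and in 33.8% of 32851 windows of the same length over all genes. TCACCCCAC was in 0.496% of all windows and in 1 member, Hmgcs1, and the looser TCACNCCAC, which includes the first motif, was in 1.05% of all windows and again in Hmgcs1. A match describes letters in a window, and the absence of one says nothing about the factor.

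After filtering, 22235, 22707 and 26967 cells remained in the mono-IL-10, IL-10/2-Trikine and combination libraries, with a median of 4774, 5562 and 4273 UMIs (unique molecular identifiers, each counting 1 captured RNA molecule) per cell. Between 137 and 180 cell barcodes were shared by a pair of libraries, at most 0.793% of the smaller one. Although the samples are labeled as T cells, the libraries also held macrophages, monocytes, NK cells, neutrophils and KP1 tumor cells, and these were kept as classes of their own. Cells were called cycling at 20 or more UMIs of 25 proliferation genes per 10000 UMIs and resting below 10. Levels are in CPM, the count of a gene divided by the total count of its class in 1 library and scaled to 1000000 UMIs, in the order mono-IL-10, IL-10/2-Trikine, combination. Ranges in parentheses are exact 95% intervals for counting error alone, and reads of amplified RNA carry other error that they do not cover.

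Levels across cell classes came first. Resting KP1 tumor cells carried the highest summed level of the sterol arm. The highest class differed between single members. Hmgcs1 stood at 167 to 176 CPM in resting KP1 cells. Ebp stood at 87.2 to 107 CPM in cycling regulatory T cells and 18.2 to 30.9 CPM in resting KP1 cells. The 21 sterol arm genes summed to 1230.1, 1161.3 and 1130.6 CPM in resting tumor cells, against 417, 463 and 438 CPM in resting CD8 T cells. The ratio of tumor to CD8 T cells was 2.95 (2.72 to 3.19), 2.51 (2.38 to 2.65) and 2.58 (2.41 to 2.76) in the 3 libraries. The 6 fatty acid genes had ratios of 3.01, 2.90 and 2.78. Of the sterol arm genes with at least 20 UMIs in the pair, 15 of 20, 16 of 21 and 16 of 21 were over 1.5-fold higher in tumor cells, where 40.6%, 44.9% and 44.4% of all genes were. The median log2 ratio of the arm was 1.20, 1.32 and 1.18, against 0.32, 0.37 and 0.41 over all genes. Tumor cells were shallow in 2 libraries, with medians of 944, 6721 and 1375 UMIs against 3980, 3237 and 3204 in resting CD8 T cells.

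**Figure D1:**
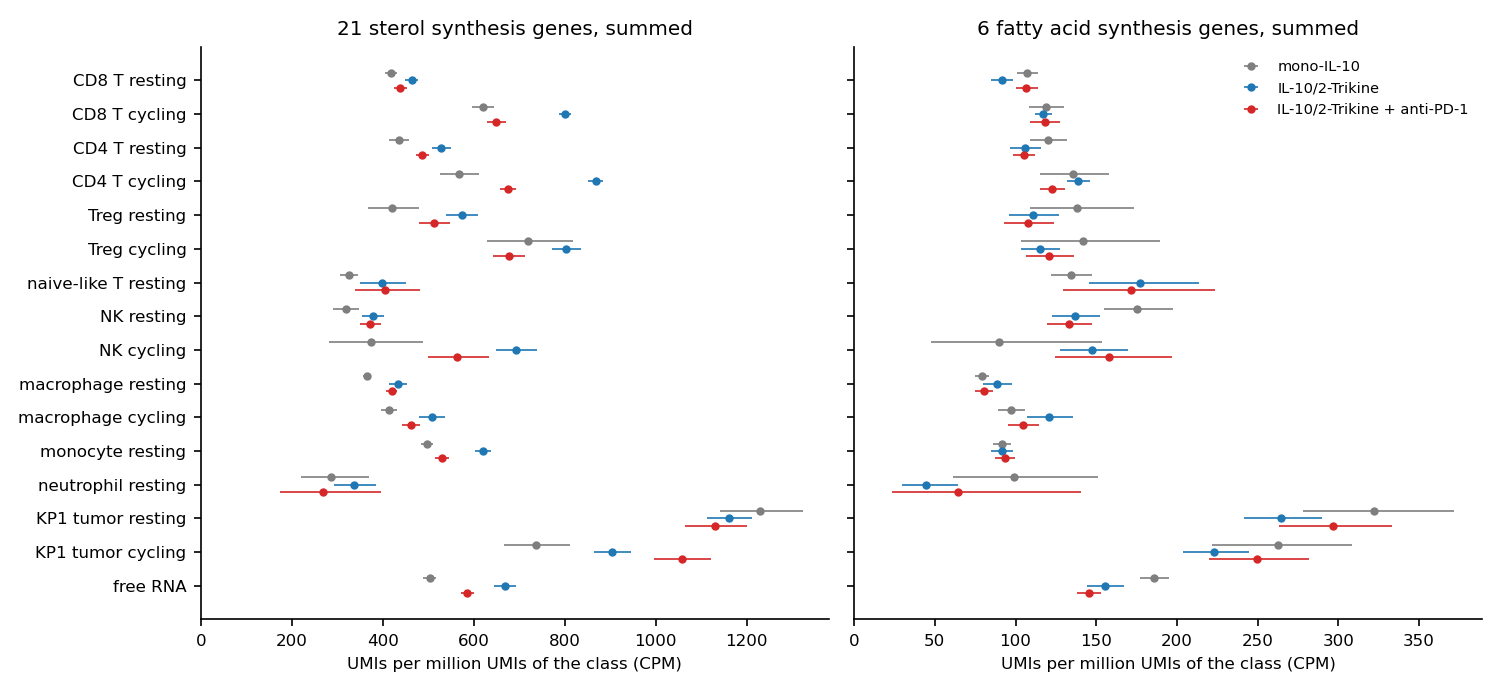
Summed levels of the 21 sterol arm genes (left) and the 6 fatty acid genes (right) in each cell class, in counts per 1000000 UMIs of the class (CPM). Points are libraries (gray mono-IL-10, blue IL-10/2-Trikine, red combination), bars are 95% counting intervals, and free RNA is the pool of barcodes too small to be cells. Resting KP1 tumor cells sit near 1200 CPM for the sterol arm, and cycling CD8 and CD4 T cells of the IL-10/2-Trikine library sit at 801 and 868 CPM, right of both other libraries.

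The mevalonate steps separated tumor from T cells more widely than the later steps did. Summed, they stood 5.05-, 3.73- and 4.54-fold higher in resting tumor cells, and the squalene and sterol steps 2.30-, 2.12- and 1.87-fold. Hmgcs1, which condenses acetoacetyl-CoA with acetyl-CoA, stood at 176, 174 and 167 CPM in tumor cells and 29.7, 34.1 and 27.2 CPM in CD8 T cells. Sqle, the squalene epoxidase, stood at 89.9, 89.0 and 50.5 CPM against 9.35, 9.43 and 7.65 CPM. Scd2, a stearoyl-CoA desaturase, stood at 79.7, 85.1 and 101 CPM against 15.1, 12.1 and 11.5 CPM. No library of T cells reached the tumor values of these 3 genes. Ebp, the sterol isomerase, ran the other way, with 20.4, 18.2 and 30.9 CPM in tumor cells and 74.4, 77.9 and 70.4 CPM in CD8 T cells. Sc5d, a late desaturase of the sterol ring, did not separate them, with ratios of 0.819 (0.480 to 1.31), 1.001 (0.756 to 1.31) and 0.898 (0.612 to 1.28).

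Insig1 and Pmvk are given as examples of members that stood higher in macrophages and monocytes than in resting CD8 T cells. Monocytes also held more Fdps, at 2.58-, 2.47- and 2.45-fold, Mvd, at 2.42-, 2.85- and 2.96-fold, and Msmo1, at 2.40-, 2.61- and 1.92-fold. They held less of others, with Acat2 at 0.365-, 0.419- and 0.259-fold, Hsd17b7 at 0.278-, 0.397- and 0.234-fold and Sc5d at 0.388-, 0.473- and 0.387-fold. The whole arm stood at 1.19-, 1.34- and 1.21-fold in monocytes and 0.875-, 0.934- and 0.957-fold in macrophages, where Sqle stood at 0.309-, 0.391- and 0.527-fold. Neutrophils held 14.1, 15.9 and 0 CPM of Pmvk, on 3, 10 and 0 UMIs. Insig1, the sterol sensor that retains SCAP, stood at 50.9, 61.1 and 70.7 CPM in resting macrophages and 51.3, 78.3 and 69.1 CPM in resting monocytes, against 24.5, 33.7 and 32.5 CPM in resting CD8 T cells. Pmvk, the phosphomevalonate kinase, stood at 46.1, 56.5 and 54.0 CPM in macrophages and 47.8, 61.0 and 78.5 CPM in monocytes, against 15.5, 20.9 and 23.4 CPM. In both genes the lowest macrophage or monocyte library lay above the highest CD8 T library. Resting NK cells carried more Elovl6, the elongase that makes stearate from palmitate, than resting CD8 T cells, with 64.5, 46.7 and 40.3 CPM against 14.9, 16.7 and 27.1 CPM. Resting regulatory T cells, at 38.7, 38.9 and 39.8 CPM, and naive-like T cells, at 29.5, 69.2 and 46.8 CPM, stood above CD8 T cells too. The naive-like interval in the combination holds 1. Resting CD4 T cells, at 19.5, 17.2 and 19.9 CPM, stood below CD8 T cells in the combination.

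Scd1, the other stearoyl-CoA desaturase, was close to undetected. Resting CD8 T cells held 4, 0 and 1 UMIs of it, and a count of 0 there allows up to 0.368 CPM in the IL-10/2-Trikine library. Free RNA in barcodes of at most 100 UMIs held 22.1, 0.644 and 2.17 CPM of Scd1. Resting monocytes held 22, 2 and 7 UMIs, in the same order of libraries as the free RNA. The 0.123-fold ratio of Scd1 in monocytes (0.0140 to 0.5003, IL-10/2-Trikine over mono-IL-10) therefore has the free RNA moving with it, whose part was not tested.

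The first comparison between treatments set IL-10/2-Trikine against mono-IL-10 and asks what the added IL-2Rβ arm changed. In CD8 and CD4 T cells the summed mevalonate steps stood higher with IL-10/2-Trikine, Idi1 among them, and in resting CD8 T cells Srebf1 and Acaca stood lower. Where members are ranked by ratio below, the ranking covers those with at least 20 CPM in 1 library of the pair. Resting and cycling cells were compared apart, because cycling cells were 13.4%, 36.5% and 15.4% of CD8 T cells and 9.82%, 37.9% and 21.98% of CD4 T cells in the 3 libraries. The IL-10/2-Trikine library also serves as the denominator of the second comparison, so that a value high or low in it alone moves both.

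Idi1, the isomerase that turns isopentenyl into dimethylallyl diphosphate, stood at 14.9, 31.0 and 20.7 CPM in resting CD8 T cells. In cycling CD8 T cells it stood at 53.5, 110 and 69.8 CPM, and in cycling CD4 T cells at 50.2, 127 and 75.1 CPM. In all 3 classes the IL-10/2-Trikine library was the highest and the counting intervals of the 3 libraries did not overlap. Idi1 was picked for a low T cell ratio with this library as denominator, which favors a high value in it. Its T cell values in both comparisons are therefore a description. Over mono-IL-10 the ratio was 2.08 (1.69 to 2.58) in resting CD8, 2.05 (1.78 to 2.38) in cycling CD8 and 2.52 (1.95 to 3.32) in cycling CD4 T cells. Resting CD4 T cells held 15.9, 30.7 and 27.7 CPM, a ratio of 1.93 (1.41 to 2.68). Free RNA moved in the same order, with 32.1, 66.6 and 49.2 CPM of Idi1, and its part in these ratios was not tested. Subset markers also moved within resting CD8 T cells, with Trdc at 2.12, 16.2 and 4.59 CPM, Ly6c2 at 578, 870 and 600.4 CPM and Ccr7 at 16.6, 35.5 and 17.8 CPM, highest in the IL-10/2-Trikine library, and their part was not tested. Tumor cell genes in resting CD8 T cells give differing shares of foreign RNA. Uchl1 stood at 1.49, 2.94 and 2.30 CPM there against 34.2, 28.1 and 44.0 CPM in the free RNA, and Chga at 0.319, 0.368 and 1.20 CPM against 24.4, 14.8 and 39.5 CPM.

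**Figure D2:**
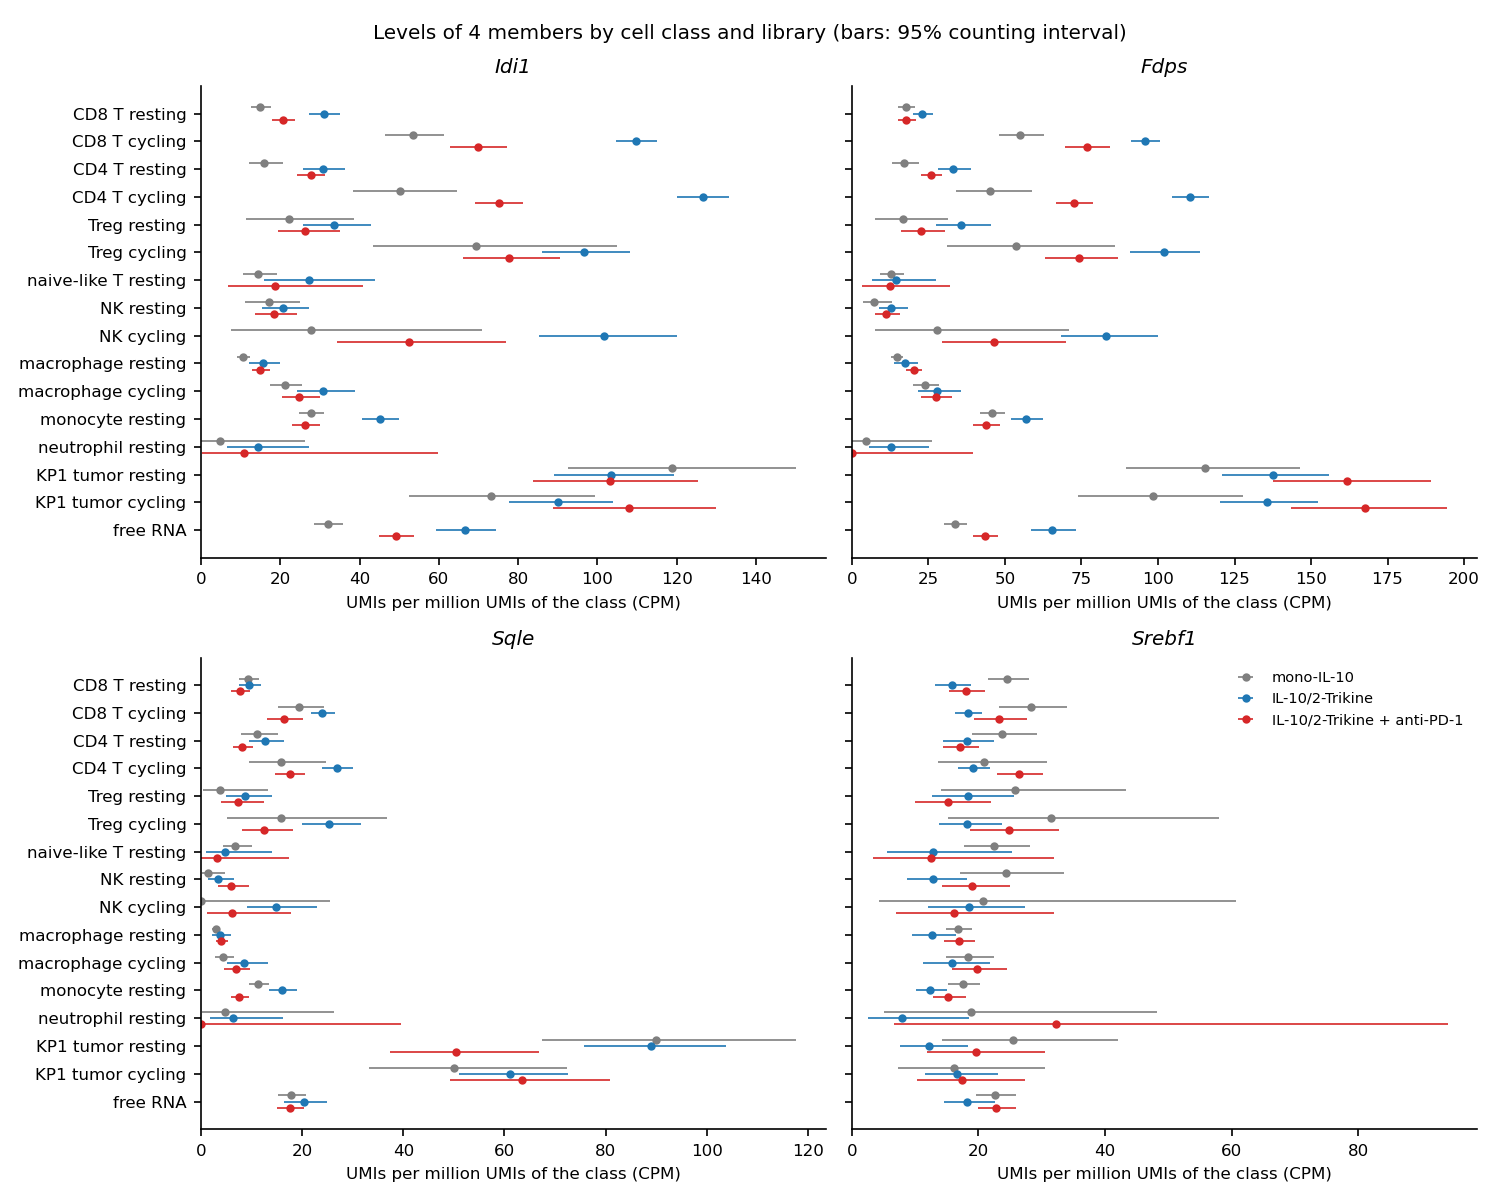
Levels of Idi1, Fdps, Sqle and Srebf1 by cell class, in counts per 1000000 UMIs of the class (CPM), with the 3 libraries in gray (mono-IL-10), blue (IL-10/2-Trikine) and red (combination) and 95% counting intervals as bars. Idi1 in cycling CD8 T cells is at 53.5, 110 and 69.8 CPM with intervals that do not overlap, and Srebf1 in resting CD8 T cells is lowest in blue, at 15.8 CPM.

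In resting CD8 T cells 27 of the 28 members had at least 20 UMIs in the pair, and the one that did not was Scd1. Idi1 alone was over 1.5-fold higher, where 4.57% of all genes were, and Srebf1 and Lss were lower by that much, where 9.73% of all genes were. Lss, the lanosterol synthase, rested on few UMIs, with a ratio of 0.577 (0.272 to 1.16). The 21 sterol arm genes had a median log2 ratio of 0.11 against -0.10 over all genes, and their sum stood 1.11-fold higher (1.06 to 1.16). The sum of the mevalonate steps stood at 1.36-fold (1.25 to 1.49), while the squalene and sterol steps stood at 1.03-fold (0.964 to 1.09). Without Idi1 the arm stood at 1.07-fold and the mevalonate steps at 1.24-fold.

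Among members with at least 20 CPM in resting CD8 T cells, the highest ratios after Idi1 belonged to Insig1 at 1.37, Pmvk at 1.35, the methylsterol oxidase Msmo1 at 1.33 and the farnesyl diphosphate synthase Fdps at 1.30. The lowest of these was Srebf1, at 24.5, 15.8 and 18.0 CPM, a ratio of 0.644 (0.515 to 0.802). Acaca, the carboxylase that makes malonyl-CoA, followed with 29.96, 20.1 and 23.9 CPM and 0.671 (0.550 to 0.816). Srebf2 stood at 0.820 (0.698 to 0.961), the citrate lyase Acly at 0.912 and Sc5d at 0.992. The fatty acid genes summed to 0.853-fold (0.775 to 0.938), with Acaca the lowest and none of the 5 measured past the 1.5-fold limit. Members whose unscaled intervals lay below 1 were Srebf1, Srebf2, Acaca and the last reductase of the sterol route, Dhcr7, at 0.719 (0.517 to 0.995). TMM and median-of-ratios factors for this pair were 0.934 and 0.940, and dividing by them raises every ratio. The upper limits of Srebf2 and Dhcr7 lie above both factors, so both intervals would then hold 1. That of the fatty acid sum lies between the factors, and Srebf1 would come inside the 1.5-fold limit. Immediate-early and heat shock genes, listed here with handling in mind, moved in the same class. The sum of 10 such genes stood at 0.719-fold (0.702 to 0.736) here and 1.19-fold (1.16 to 1.22) in the combination over IL-10/2-Trikine. Handling and treatment cannot be told apart in these libraries, and the part of these genes in the values was not tested.

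In cycling CD8 T cells 5 of the 21 sterol arm genes were over 1.5-fold higher with IL-10/2-Trikine and none was lower by that much, where 7.05% and 10.1% of all genes were. The 5 became 3 when every cell weighed the same. Without Idi1 the count was 4 of 20 and the sum of the arm 1.22-fold. Idi1 was 1 of the 5. The others were Msmo1 at 15.9 and 27.98 CPM (1.76, 1.35 to 2.33), Fdps at 55.0 and 95.7 CPM (1.74, 1.51 to 2.01), the acetyl-CoA acetyltransferase Acat2 at 13.4 and 21.1 CPM (1.58, 1.18 to 2.15), and the sterol reductase Tm7sf2, whose interval of 0.814 to 5.44 holds 1. Cyp51, the lanosterol demethylase, was just inside the limit at 1.47 (1.27 to 1.71). The arm's median log2 ratio was 0.30 against -0.07 over all genes, 20 of its 21 genes lay above 0, and its sum was 1.29-fold (1.24 to 1.35). The exception was Fdft1, the squalene synthase, at 37.6 and 28.1 CPM and 0.748 (0.620 to 0.905). Outside the arm, Srebf1 had 28.3, 18.3 and 23.3 CPM and 0.648 (0.520 to 0.812), Acaca 0.848 and Acly 0.872. Stard4 at 1.02 was the lowest of the arm after Fdft1 among the genes with at least 20 CPM. Subset markers moved in cycling CD8 T cells too, with Ly6c2 at 257, 399 and 237 CPM and Cd3e at 678, 520 and 618 CPM. Trdc stood at 0.504, 4.74 and 5.03 CPM, and the part of these markers was not tested.

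Cycling CD4 T cells, 91 cells in the mono-IL-10 library, showed the widest shift. Of the 21 sterol arm genes 14 were over 1.5-fold higher, where 9.83% of all genes were, and none was lower by that much, where 15.7% were. The sum of the arm was 1.53-fold (1.42 to 1.66) and that of the mevalonate steps 1.99-fold (1.74 to 2.30). Without Idi1, 13 of 20 arm genes were higher, and the sums stood at 1.43-fold and 1.79-fold. Fdps went from 45.2 to 110 CPM (2.45, 1.86 to 3.27), Msmo1 stood 1.96-fold and Cyp51 1.74-fold. Fasn, the fatty acid synthase, went from 12.5 to 23.3 CPM (1.86, 1.11 to 3.36) and Acaca from 43.5 to 29.99 CPM (0.690, 0.514 to 0.942), so that the fatty acid genes split and their sum stood at 1.03-fold (0.872 to 1.21). At the low end were also Fdft1 at 0.804, Srebf1 at 0.917, Srebf2 at 1.02 and Scd2 at 1.04. Markers differed within this class as well, with Cd3e at 647, 421 and 633 CPM and Cd4 at 339, 267 and 350 CPM. Trdc stood at 0, 6.28 and 2.38 CPM, and the part of these markers was not tested.

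**Figure D3:**
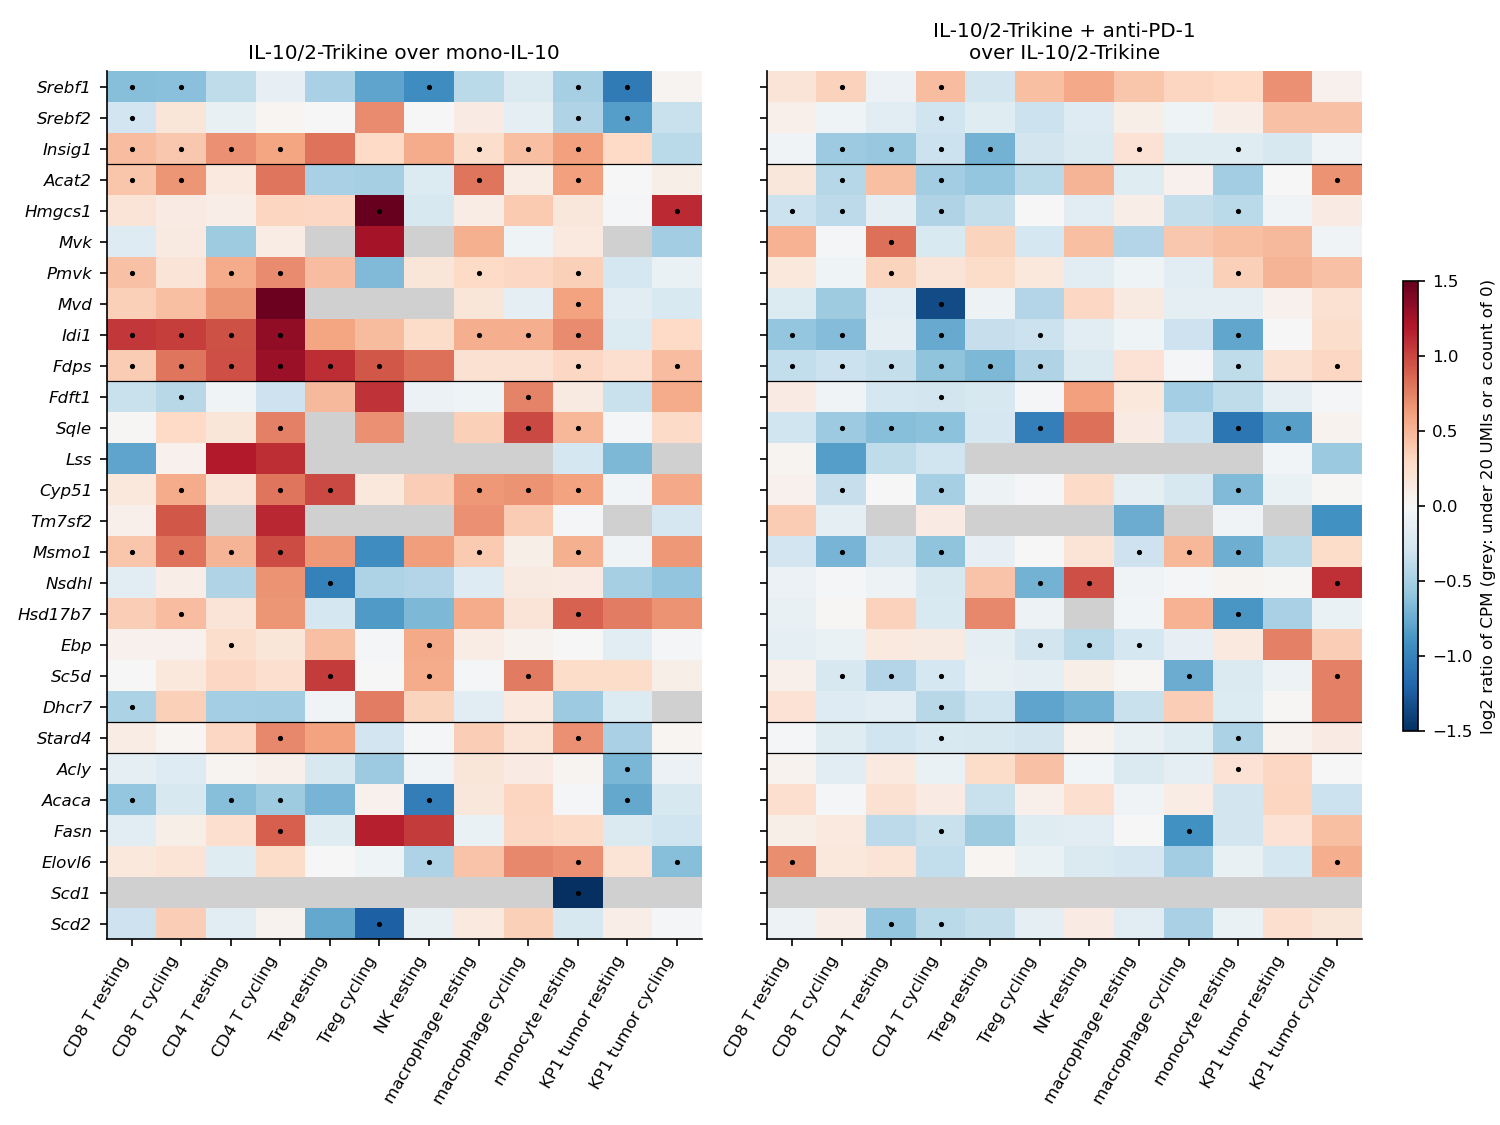
Log2 ratios of CPM for the 28 members (rows, grouped by role) in 12 cell classes (columns), for IL-10/2-Trikine over mono-IL-10 (left) and the combination over IL-10/2-Trikine (right). Red is higher and blue lower in the first-named library, gray cells had under 20 UMIs or a count of 0, and dots mark 95% counting intervals that leave out 0. Idi1 and Fdps are red on the left in every T cell column, and Srebf1 is blue on the left in most.

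The mix of T cell classes, which differed between the libraries in cycling share and in subset, moved values of T cells taken as 1 pool. Over the 6 CD8, CD4 and regulatory T cell classes, Idi1 stood 3.33-fold above mono-IL-10 with each library's own mix of classes and 2.11-fold with the mix of the IL-10/2-Trikine library in both. The sterol arm went from 1.51-fold to 1.31-fold and Fdps from 2.83-fold to 1.93-fold under the same step. Over all cells of the T cell clusters, Idi1 stood at 32.5, 92.8 and 54.3 CPM, 2.86-fold (2.70 to 3.02) above mono-IL-10 with IL-10/2-Trikine.

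Myeloid cells shared part of the shift. In resting monocytes 7 of the 21 sterol arm genes were over 1.5-fold higher, where 5.51% of all genes were, and none was lower by that much, where 6.82% were. The 7 became 4 when every cell weighed the same. Without Idi1, 6 of 20 were higher and the sum of the arm was 1.22-fold. Markers within the monocyte class also differed between the libraries, with the macrophage gene C1qa at 518, 303 and 603 CPM, Chil3 at 1299.5, 1903 and 2223 CPM and the neutrophil gene S100a9 at 19.9, 54.8 and 10.8 CPM, and their part in the monocyte values was not tested. Resting macrophages held less Idi1 than monocytes, at 10.7, 15.7 and 15.0 CPM. In monocytes the arm summed to 498, 619 and 531 CPM, a ratio of 1.24 (1.20 to 1.29). Idi1 had 27.7, 45.1 and 26.4 CPM (1.63, 1.40 to 1.90), Insig1 stood at 1.53 and Cyp51 at 1.52, and Msmo1 at 1.45 and Pmvk at 1.28 came next. Among members with at least 20 CPM in 1 of the pair, Srebf2 was the lowest, at 46.6 and 33.9 CPM (0.729, 0.628 to 0.845), and Acaca, Ebp, Acly and Hmgcs1 lay between 0.987 and 1.13. Acat2 at 1.53, Mvd at 1.52, Hsd17b7 at 1.84 and Stard4, a carrier that moves cholesterol between membranes, at 1.61 completed the 7, and outside the arm Elovl6 was past the limit at 1.61.

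In resting macrophages 3 of 20 sterol arm genes were over 1.5-fold higher, where 7.30% of all genes were, and none was lower by that much, where 5.62% were. Cyp51 had 20.2, 31.8 and 28.9 CPM (1.57, 1.28 to 1.93), Acat2 had 6.22 and 10.8 CPM (1.74, 1.20 to 2.49), and Tm7sf2 had an interval that holds 1. The sum was 1.19-fold (1.12 to 1.25). Msmo1 stood at 1.31, Pmvk at 1.23, Insig1 at 1.20 and Acly at 1.13, and Nsdhl, which removes a carbon from the sterol ring, was the lowest of those with at least 20 CPM, at 0.876. Lss and Scd1 had under 20 UMIs in this class.

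Resting tumor cells did not show this shift beyond counting error, but cycling ones held more of the sterol arm with IL-10/2-Trikine than with mono-IL-10. Hmgcs1 in cycling KP1 cells ranged from 51.8 to 123 CPM over the libraries. The part of depth in these cycling cells was not tested. Idi1 in resting KP1 cells had 119, 103 and 103 CPM, a ratio of 0.870 (0.658 to 1.16), and the sterol arm had 0.944 (0.867 to 1.03). Resting NK cells had 17.1, 20.7 and 18.3 CPM of Idi1 (1.21, 0.738 to 2.02) and 1.18-fold (1.06 to 1.33) for the arm. Srebf1 stood lower in resting KP1 cells too, at 25.4, 12.2 and 19.6 CPM (0.478, 0.237 to 0.990), as did Acaca, at 105, 61.9 and 77.3 CPM (0.589, 0.428 to 0.816). Single genes of the arm moved both ways in this class. Srebf2 stood lower with IL-10/2-Trikine, at 89.9, 50.9 and 69.1 CPM, and Fdps higher, at 115, 138 and 162 CPM. KP1 cells came from 3 clusters in unequal parts, of which 1 held 221, 572 and 347 cells and another 157, 28 and 250, so that the class differed in make-up between the libraries. The free RNA of the sterol arm stood 1.33-fold higher (1.27 to 1.39), and its part in the immune classes was not tested.

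The second comparison set the combination against IL-10/2-Trikine alone and asks what anti-PD-1 added. The sum of the sterol arm was 0.811 and 0.778 in cycling CD8 and CD4 T cells, and it was between 0.947 and 0.974 in resting CD8 T cells, macrophages and resting tumor cells. Because the list was drawn from this comparison in T cells, its T cell values are a description. Over all cells of the T cell clusters the Idi1 ratio was 0.585 (0.563 to 0.608), and in resting CD4 T cells it was 0.900 (0.727 to 1.12).

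In resting CD8 T cells Idi1 stood at 0.666 (0.549 to 0.808), just past the limit. It was the only sterol arm gene lower by over 1.5-fold, where 4.36% of all genes were, and none of the arm was higher by that much, where 8.04% were. Fdps followed at 0.773, Hmgcs1 at 34.1 and 27.2 CPM and 0.799, Msmo1 at 0.819 and Ebp at 0.903. The arm's median was -0.03 against 0.02 over all genes and its sum 0.947 (0.906 to 0.990). Elovl6 was the 1 member over 1.5-fold higher, with 14.9, 16.7 and 27.1 CPM and 1.63 (1.31 to 2.02). The fatty acid sum was 1.17-fold (1.06 to 1.29), and Acaca at 1.19, Pmvk at 1.12, Srebf2 at 1.06 and Sc5d at 1.05 had intervals that hold 1.

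In cycling CD8 T cells 3 of 21 sterol arm genes were lower by over 1.5-fold, where 5.42% of all genes were, and none was higher by that much, where 5.92% were. The count was 1 with marker gates per cell alone and 5 with free RNA subtracted or without the highest doublet scores. Without Idi1, from which the list was drawn, 2 of 20 were lower. The 3 genes were Msmo1 at 27.98 and 17.3 CPM (0.619, 0.490 to 0.774), Idi1 at 0.636 (0.568 to 0.711) and Lss, whose interval of 0.277 to 1.05 holds 1. Sqle at 24.0 and 16.4 CPM (0.684) and Insig1 at 37.7 and 25.9 CPM (0.686) lay just outside the limit, and Acat2 stood at 0.742. The median of the arm was -0.24 against 0.02 over all genes, 20 of 21 genes lay below 0, and the sum was 0.811 (0.781 to 0.842). Srebf1 again ran the other way, at 1.27 (1.02 to 1.57). Scd2 at 1.07, Acaca at 0.982, Fdft1 at 0.961 and Pmvk at 0.959 stayed near 1, and the fatty acid sum was 1.01 (0.920 to 1.10).

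In cycling CD4 T cells 5 of 21 genes were lower by over 1.5-fold, where 5.07% of all genes were, and none was higher by that much, where 5.96% were. The 5 became 3 with marker gates per cell alone and without the highest doublet scores, and 4 of 20 were lower without Idi1. Idi1 had 0.593 (0.539 to 0.653), Sqle 26.9 and 17.5 CPM (0.652), Fdps 110 and 72.5 CPM (0.657) and Msmo1 0.660. The fifth was Mvd, the decarboxylase that makes isopentenyl diphosphate, at 6.98 and 2.75 CPM (0.395, 0.234 to 0.639). Cyp51 stood at 0.708, and the sum of the arm was 0.778 (0.752 to 0.804). Srebf1 stood at 19.2 and 26.4 CPM (1.38, 1.13 to 1.67), with Pmvk at 1.15, Ebp and Acaca at 1.09 and Acly at 0.936. With the mix of T cell classes held as in the IL-10/2-Trikine library, the pooled Idi1 ratio went from 0.522 to 0.646 and that of the sterol arm from 0.769 to 0.830.

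Resting monocytes were not used to draw the list, but they came from the same libraries and share the IL-10/2-Trikine denominator. Between these libraries C1qa went from 303 to 603 CPM and S100a9 from 54.8 to 10.8 CPM in this class, and the part of that change in make-up was not tested. There 5 of 20 sterol arm genes were lower by over 1.5-fold, where 4.56% of all genes were, and none was higher by that much, where 5.82% were. The 5 became 3 when every cell weighed the same. Idi1 stood at 26.4 CPM (0.584, 0.494 to 0.690), Sqle went from 16.1 to 7.55 CPM (0.470, 0.345 to 0.635), Msmo1 from 54.4 to 32.7 CPM (0.601) and Cyp51 from 59.5 to 37.5 CPM (0.631). Hsd17b7, the ketosteroid reductase, was the fifth, at 0.545 (0.297 to 0.974). Without Idi1, 4 of 19 were lower and the sum of the arm was 0.878. Free RNA also held less Idi1 in the combination than with IL-10/2-Trikine, and its part was not tested. Fdps stood at 0.768 and Hmgcs1 at 0.757. For Idi1, Msmo1 and Cyp51 the mono-IL-10 library had 27.7, 37.5 and 39.0 CPM, and for Sqle 11.3 CPM. No interval was computed for the combination against mono-IL-10. Pmvk stood out upward, at 61.0 and 78.5 CPM (1.29, 1.14 to 1.45), with Acly at 1.16, Ebp at 1.11, Srebf2 at 1.08 and Insig1 at 0.883.

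In resting macrophages the sum of the arm stood close to 1, at 0.970 (0.920 to 1.02). Tm7sf2, on few UMIs, was the 1 of 20 genes lower by over 1.5-fold, where 3.91% of all genes were, and none was higher by that much, where 5.23% were. Msmo1 at 0.808 and Ebp at 0.830 had intervals below 1, Insig1 at 1.16 had one above it, and the other named members, Acly, Cyp51, Pmvk, Nsdhl, Srebf2, Hmgcs1 and Fdps, lay between 0.863 and 1.17. Idi1 stood at 0.954 (0.715 to 1.28). Resting KP1 cells had 0.974 (0.904 to 1.05) for the arm and 0.997 (0.774 to 1.28) for Idi1, and Sqle there stood at 0.567 (0.403 to 0.786). Cycling KP1 cells went the other way from cycling T cells, with more of the sterol arm in the combination than with IL-10/2-Trikine. The part of depth in this was not tested.

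Other genes of the SREBP pathway were taken from a separate list of 22 genes that holds no member. In IL-10/2-Trikine over mono-IL-10 their sum stood at 0.958 (0.920 to 0.997) in resting and 1.03 (0.991 to 1.08) in cycling CD8 T cells. Their median log2 ratio was -0.11 in resting and 0.07 in cycling cells, against -0.10 and -0.07 over all genes, with 6 of 18 and 13 of 19 measured genes above 0 and the others below. In the combination over IL-10/2-Trikine the medians were -0.10 and -0.09 against 0.02 in both over all genes, with 8 of 19 and 7 of 20 genes above 0. Mbtps1, the protease that makes the first cut in SREBP, was picked after its values were seen. It stood at 40.6 and 24.5 CPM in cycling CD8 T cells of mono-IL-10 and IL-10/2-Trikine (0.603, 0.501 to 0.728).

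Cycling and resting cells of the same library were compared next, which needs no pair of treatments. In CD8 T cells 8 of 20, 12 of 21 and 6 of 21 sterol arm genes were over 1.5-fold higher in cycling cells in the 3 libraries, where 16.8%, 20.8% and 19.9% of all genes were. The 6 of the combination became 10 with TMM scaling. The sum of the arm was 1.48-fold (1.41 to 1.56), 1.73-fold (1.67 to 1.79) and 1.48-fold (1.42 to 1.55) higher. Idi1 and Fdps led, with Idi1 at 3.60-, 3.54- and 3.38-fold and Fdps at 3.10-, 4.15- and 4.30-fold. Sqle stood at 2.08-, 2.54- and 2.14-fold, Fdft1 at 2.16-, 2.03- and 1.79-fold, and Pmvk at 2.26-, 1.91- and 1.64-fold.

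Other members lay closer to 1. Insig1 stood at 1.16-, 1.12- and 0.797-fold, and Msmo1 at 1.02-, 1.34- and 1.02-fold. Among fatty acid genes, Fasn was 1.92-, 2.29- and 2.40-fold higher in cycling cells. Elovl6 stood at 0.848-, 0.872- and 0.597-fold, of which only the combination was past the 1.5-fold limit. Cycling CD8 T cells had a median of 10442, 10337 and 9346 UMIs, against 3980, 3237 and 3204 in resting ones. The part of depth in these ratios was not tested, and CPM divides by it. Subset markers differed too, with Ly6c2 at 257, 399 and 237 CPM in cycling CD8 T cells and 578, 870 and 600 CPM in resting ones. The part of subset make-up in these ratios was not tested. In CD4 T cells Idi1 stood at 3.16-, 4.12- and 2.71-fold and Fdps at 2.66-, 3.33- and 2.81-fold.

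**Figure D4:**
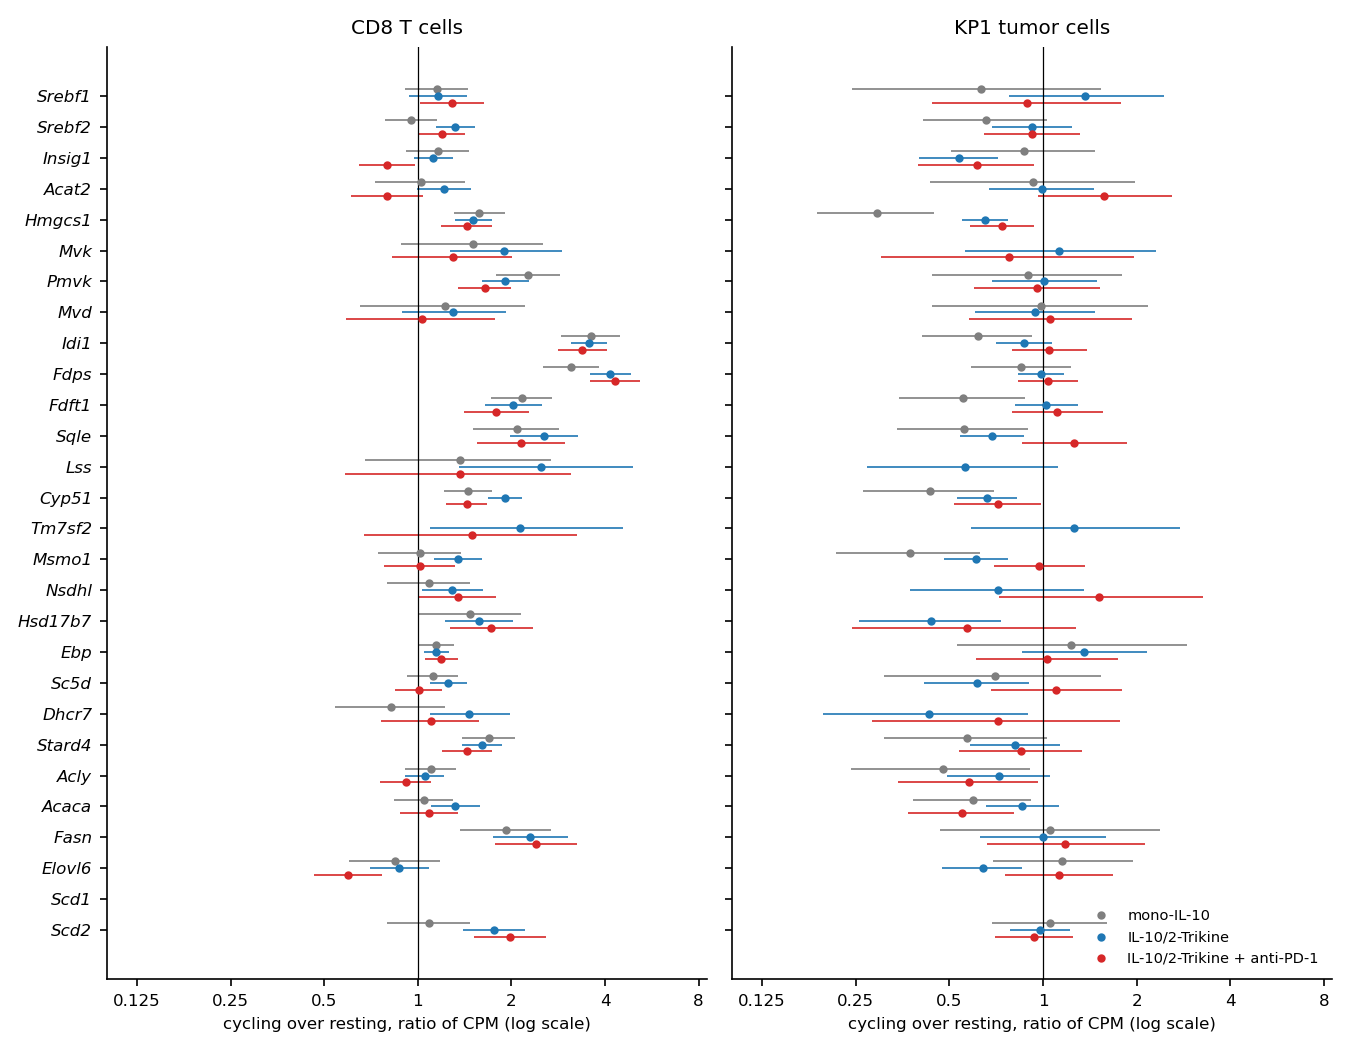
Ratio of CPM in cycling over resting cells of the same library for each member, on a log axis, in CD8 T cells (left) and KP1 tumor cells (right), with the 3 libraries in gray (mono-IL-10), blue (IL-10/2-Trikine) and red (combination) and 95% counting intervals as bars. Members with under 20 UMIs in the pair are not drawn. Idi1 and Fdps lie between 3.10 and 4.30 in CD8 T cells, while Hmgcs1 lies at 0.294, 0.650 and 0.738 in tumor cells.

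The sums were closer to 1 in macrophages than in T cells and below 1 in tumor cells. In macrophages the sterol arm was 1.13-, 1.17- and 1.10-fold higher in cycling cells, with Idi1 at 1.98-, 1.97- and 1.66-fold and Pmvk lower, at 0.729-, 0.736- and 0.683-fold. In KP1 cells the arm was lower in cycling cells, at 0.598 (0.529 to 0.676), 0.778 (0.731 to 0.828) and 0.935 (0.859 to 1.02). Of the sterol arm genes with 20 UMIs, 8 of 15, 8 of 21 and 2 of 19 were lower by over 1.5-fold, where 15.1%, 12.0% and 17.2% of all genes were. Hmgcs1 stood at 0.294 (0.187 to 0.447), 0.650 (0.547 to 0.772) and 0.738 (0.581 to 0.937), and Cyp51 at 0.434, 0.661 and 0.716. Msmo1 stood at 0.375, 0.608 and 0.974, its last interval holding 1. Cycling KP1 cells had medians of 719, 2623 and 1363 UMIs, and the widest ratios were in the library with the fewest. At such depths the cycling limit rests on few UMIs per cell. The KP1 clusters had medians of 829, 15490 and 1908 UMIs, with Mki67 in 14.3%, 62.3% and 29.7% of their cells. The part of depth and cluster make-up in these ratios was not tested.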

How the data were processed

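Single-cell RNA libraries (10x 3′ v3.1) of live CD45+ cells from KP1 tumors were analysed, 1 library for each of 3 treatments. The deposited values are whole-number UMI counts per gene and barcode, unfiltered, made by the authors with Cell Ranger. The file headers give version 8.0.0, the study's methods give another version, and the labels name mm10 where the methods name a GRCm39 reference. The tables held 1425273, 1520583 and 1491573 barcodes and totals of 158570946, 197176873 and 175794959 UMIs, and no column was left unmapped. Barcodes were kept as cells from 200 detected genes upward, if mitochondrial UMIs made up no more than 20%. The methods state fewer cells under the same limits.

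From these counts, cells were clustered with scanpy 1.11.5 and leidenalg 0.10.2 (2000 variable genes, 30 principal components, 20 neighbours, resolution 1, seed 1), with the members and cell cycle genes left out of the clustering. Of 23 clusters 18 were named from marker lists. T cells were split by UMIs of Cd8a or Cd8b1, Cd4, Foxp3 and Trdc, cells with C1q UMIs were left out of T cells and cells with Cd3 or Trac UMIs out of myeloid and tumor classes. Scrublet's automatic cut marked 12.5% of cells in 1 library and 0 in both others, so it was not used. The cell names are rebuilt here and can differ from the study's.

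UMIs were summed over the cells of each class and library. Ratios were called past 1.5-fold with at least 20 UMIs in the pair. Exact Poisson intervals were used for levels and exact conditional binomial intervals for ratios, both at 95% (scipy 1.17.1). With 1 library per group no test was run and no p-value is given. Members named with values in a class are Idi1 and the 5 highest and 5 lowest ratios among members that reached 20 CPM in either library, plus members called past the limit or set beside them. Values of 1 gene of the list of other SREBP pathway genes are not reported here. The members and lists were chosen with earlier results of these data known. Scaling, UMI limits, cell filters, gates, doublets, the cycling limit, cell weights and free RNA were varied. The ratios and their intervals were tested on simulated Poisson counts with known folds. Clustering, cell classes and error between mice or libraries were not part of that test.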

Additional observations from a re-analysis of the deposited data

Results flagged for a closer look

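Members whose ratio went opposite ways in different cell classes of the same pair of libraries, by over 1.5-fold with counting intervals that leave out 1 on both sides and at least 20 UMIs in each library, are given here. With 1 library per treatment the difference between classes was not tested. For IL-10/2-Trikine over mono-IL-10, Elovl6 stood at 2.35 in naive-like resting T cells (29.5 and 69.2 CPM) and 1.61 in resting monocytes (4.31 and 6.93 CPM), but at 0.640 in cycling KP1 tumor cells (60.7 and 38.9 CPM). Naive-like T cells differed in make-up between mono-IL-10 and IL-10/2-Trikine, with Ccr7 at 294 and 726 CPM and Cd4 at 136 and 33.8 CPM. The part of this make-up was not tested. For the combination over IL-10/2-Trikine, Sc5d stood at 1.53 in resting Trdc+ T cells and 1.69 in cycling KP1 cells, but at 0.595 in cycling macrophages (24.9 and 14.8 CPM). In the same comparison Nsdhl stood at 1.95 in resting NK cells (8.26 and 16.1 CPM) and 2.13 in cycling KP1 cells (9.48 and 20.2 CPM), but at 0.610 in cycling regulatory T cells (22.8 and 13.9 CPM). Cycling regulatory T cells differed in make-up between IL-10/2-Trikine and the combination, with Ccr7 at 30.9 and 85.7 CPM. Ly6c2 stood at 47.2 and 20.1 CPM there, and the part of this make-up was not tested. Cycling KP1 cells had medians of 719, 2623 and 1363 UMIs, and the part of depth was not tested.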

How the results depend on the processing

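Over 10 alternatives, 220 of 260 summed ratios and 2444 of 2549 single ratios stayed within the counting interval of the main value. Of the counts, 81 of 90 stayed within 1.5 times of it. Direction was lost in 4 sums, all of the fatty acid genes in cycling CD8 T cells, whose ratios of 0.983 and 1.01 became 1.03 and 0.999 with TMM and 1.04 and 0.992 with median-of-ratios factors. It was lost in 57 single ratios, and Idi1 kept it in all 14 of its results. The cause was not tested in any case. 1 called value turned, Insig1 in resting KP1 over CD8 T cells of mono-IL-10, from 2.35 to 0.767 when every cell weighed the same.

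With TMM the tumor over CD8 ratios became 2.28, 1.88 and 1.89 (sterol arm; mono-IL-10, IL-10/2-Trikine, combination) and 2.33, 2.17 and 2.04 (fatty acid), and with median-of-ratios 2.06, 1.85 and 1.77 and 2.10, 2.14 and 1.91. IL-10/2-Trikine over mono-IL-10 became 1.36 and 1.37 in cycling and 1.19 and 1.18 in resting CD8 T cells. Cycling over resting CD8 T cells became 1.58, 1.84 and 1.58 with TMM, with 10 genes called in the combination in place of 6, and 1.88 with median-of-ratios in IL-10/2-Trikine.

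With equal cell weight the sterol arm had 1.23 in cycling CD8 T cells and 1.17 in monocytes over mono-IL-10, 0.911 in monocytes of the combination, 2.62 and 2.26 in tumor over CD8 T cells of mono-IL-10 and the combination, and 1.41 in cycling over resting cells of the combination. The fatty acid sum there became 1.13 in IL-10/2-Trikine. Counts became 3 in place of 5 in cycling CD8 T cells, 4 in place of 7 and 3 in place of 5 in monocytes. With gates per cell alone, the arm had 1.29 in macrophages and 1.38 in monocytes over mono-IL-10, 0.850 in cycling CD8 T cells, 0.905 in macrophages and 0.808 in monocytes of the combination, 3.28 in tumor over CD8 T cells of mono-IL-10 and 1.66 in cycling over resting cells of IL-10/2-Trikine, with 3 in place of 5 genes lower in cycling CD4 and 1 in place of 3 in cycling CD8 T cells.

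The next alternatives were chosen after seeing the data. With 10% free RNA subtracted, tumor over CD8 ratios were 3.21, 2.75 and 2.81 for the sterol arm and 3.26 for fatty acid genes in IL-10/2-Trikine, cycling over resting ratios were 1.85 and 1.55 in IL-10/2-Trikine and the combination, and 5 genes were lower in cycling CD8 T cells in place of 3. Without the 10% of cells with the highest doublet scores, 5 genes in place of 3 were lower in cycling CD8 and 3 in place of 5 in cycling CD4 T cells. Leaving out Scrublet's automatic calls was not run because it marked no cell in 2 libraries. No paired analysis was possible because each group is 1 library. Shallow tumor cells, and 91 cycling CD4 and 12 cycling NK cells in mono-IL-10, limit those classes.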

Other observations

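Abcg1, an LXR target that exports cholesterol, stood at 94.98, 54.0 and 86.7 CPM in resting CD8 T cells and 38.8, 14.3 and 29.6 CPM in cycling ones, lowest in the IL-10/2-Trikine library in both. Its ratios were 0.569 (0.506 to 0.638) and 0.368 (0.299 to 0.453) for IL-10/2-Trikine over mono-IL-10, and 1.60 (1.43 to 1.81) and 2.07 (1.68 to 2.54) for the combination over IL-10/2-Trikine. Abcg1 belongs to a list of 16 genes of sterol efflux, esterification and LXR. For IL-10/2-Trikine over mono-IL-10, none of 13 measured genes was over 1.5-fold higher and 3 were lower in resting CD8 T cells, where 4.57% and 9.73% of all genes were. In cycling ones none of 12 was higher and 4 were lower, where 7.05% and 10.1% were. For the combination over IL-10/2-Trikine 3 of 13 were higher and none lower in resting CD8 T cells, where 8.04% and 4.36% were, and 2 of 12 were higher and none lower in cycling ones, where 5.92% and 5.42% were. Some genes of that list are macrophage genes, and the part of free RNA in their values was not tested.

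Abca1, another cholesterol exporter, stood at 59.1, 90.6 and 60.003 CPM in resting macrophages and 80.6, 54.2 and 79.5 CPM in resting monocytes, so that the IL-10/2-Trikine library was the highest in the former and the lowest in the latter. Nr1h3, which encodes LXRα, stood at 34.2, 23.5 and 39.0 CPM in monocytes. The macrophage gene C1qa was also lowest in the IL-10/2-Trikine library in monocytes, at 518, 303 and 603 CPM. The part of this make-up in the monocyte values was not tested. Elovl5, an elongase of polyunsaturated fatty acids, was 1.49-fold higher (1.33 to 1.67) in resting CD8 T cells of the combination over IL-10/2-Trikine, at 59.3 and 88.1 CPM. Abca1, Nr1h3 and Elovl5 were picked from their lists after their values were seen.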
